A study of Homo sapiens with 4 samples.

Results

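The genes described here encode ligands that natural killer (NK) cells recognise on other cells: 6 ligands of the activating receptor NKG2D (MICA, MICB, ULBP1, ULBP2, ULBP3 and RAET1G), 2 of DNAM-1 (PVR and PVRL2, now named NECTIN2) and 1 of NKp30 (NCR3LG1, also called B7-H6). They were taken from the deposited expression table by these 9 gene names, and all 9 were present among its 55764 genes. The samples were TE5, a cell line from a human oesophageal squamous cell carcinoma. In 2 libraries the genotype is given as ETS1 overexpression, and ETS1, a transcription factor, was delivered by a lentiviral CMV vector. The 2 control libraries are listed as genotype WT. The treatment text names a vector backbone beside the ETS1 vector, without saying in so many words that the controls carried it, and all cells grew in the same medium with serum. The labels number the libraries 1 and 2 in each group and do not say whether these are separate infections or clones, so p-values measure only the spread between these libraries, which may be technical.

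NK cells weigh signals from activating and inhibitory receptors. MICA and MICB are transmembrane proteins with an MHC class I-like fold that bind no peptide, and the ULBP family are their smaller relatives, several of which are held in the membrane by a glycolipid anchor. These ligands are known to be induced by cell stress, DNA damage and transformation, and tumour cells can also shed them by proteolysis. PVR (CD155) and PVRL2 (CD112) are nectin-like adhesion proteins of epithelia that activate NK cells through DNAM-1 and restrain them through TIGIT and related receptors. NCR3LG1 is a B7 family protein found mainly on tumour cells.

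The targeted gene was higher where the labels say so: ETS1 stood at 0.491 and 0.509 FPKM (a read count divided by gene length and by library size) in the controls and at 1.84 and 1.87 FPKM in the ETS1 libraries. Recovered reads per library ranged from 40356722 to 57269987, with the ETS1 libraries deeper by a factor of 1.35. Libraries of the same group were distinct: their reads gave a chi-square of 4.07 per gene for the controls and 4.04 for the ETS1 pair, where counting noise alone gives about 1. Of 7 epithelial markers 3 were tested: KRT8, at 3.87 to 6.59 FPKM, was called higher (0.62), KRT18, at 8.29 to 10.5 FPKM, lower (-0.29), and EPCAM was not called. KRT7 and KRT19 were at most at 0.0469 FPKM, and CDH1 and CLDN4 had means under 1 FPKM. Of 8 squamous markers only SOX2 was tested, at 2.72 and 3.13 FPKM in the controls and 3.52 and 3.82 FPKM with ETS1 (called higher, limma adjusted p 0.0301). The other 7 (TP63, KRT5, KRT14, KRT6A, DSG3, KRT13 and KRT4) were at most at 0.0935 FPKM, with TP63, KRT5, KRT14, KRT6A and KRT4 at 0 in both controls. Of the 7 NK and T cell markers, 1 reached a mean of 1 FPKM, and their summed level was 1.57 and 1.87 FPKM in the controls and 1.41 and 2.05 FPKM with ETS1. For the 6 fibroblast markers, where COL1A1 alone reached a mean of 1 FPKM, the sum was 2.30 and 2.18 against 3.10 and 3.16 FPKM. The leukocyte marker PTPRC was at most at 0.0117 FPKM. The receptor genes KLRK1 (NKG2D), CD226 (DNAM-1) and NCR3 (NKp30) were at most at 0.146 FPKM in any library. Of the 13 NK receptor genes listed only HCST, the signalling adaptor of NKG2D, was tested, at 2.03 and 2.15 FPKM in the controls and 1.63 and 1.82 FPKM with ETS1 (not called, limma adjusted p 0.0587). In bulk RNA, fewer cells with a transcript and less transcript per cell cannot be told apart.

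Of the 9 ligand genes, 8 passed the filter of a mean of 1 FPKM and were tested. In the ETS1 libraries the mean FPKM of MICA fell by 20.9%, that of PVR fell by 18.9%, and that of NCR3LG1 rose by 18.5%. The other 5 (MICB, ULBP1, ULBP2, ULBP3 and PVRL2) did not pass the threshold of an adjusted p of 0.05 in limma, and RAET1G was under the filter. So 1 of 8 tested ligands was called higher, where 30.7% of all 14306 tested genes were, and 2 of 8 were called lower, where 28.4% of all tested genes were. Calls in either direction took in 59.1% of all tested genes, so 3 called ligands among 8 is no excess. The same 3 had an unadjusted p under 0.05, and the authors' deposited table, where 51.2% of genes with an adjusted p are under 0.05, calls these 3 in the same directions. The median log2 change of the 8 was 0.023, beside 0.016 over all tested genes.

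**Figure D1:**
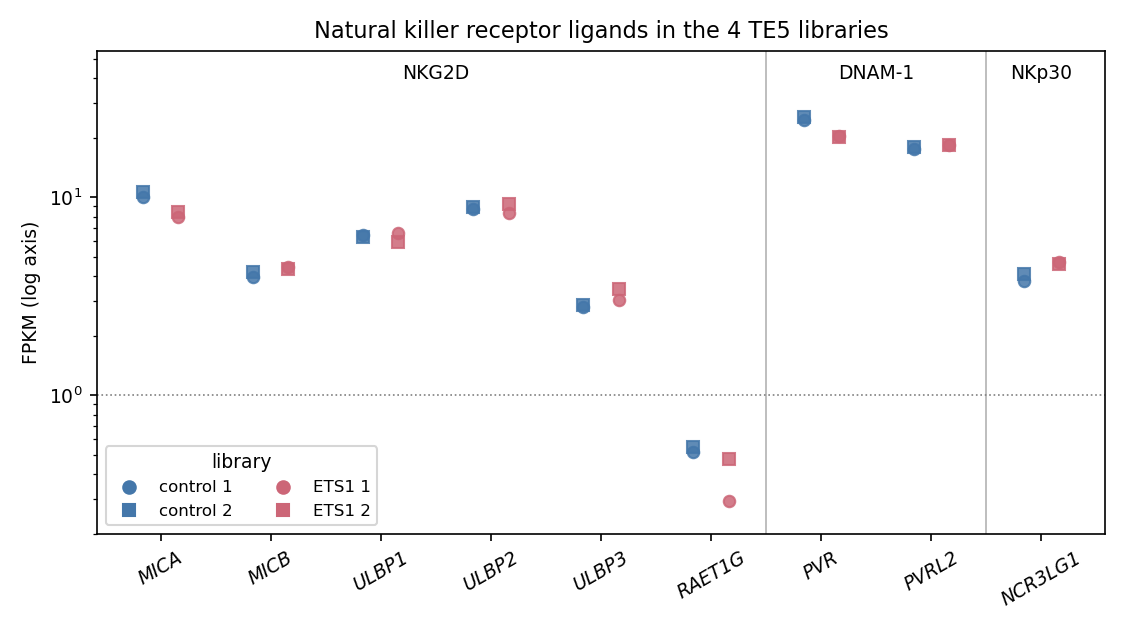
FPKM of the 9 ligand genes in each library, on a log axis, grouped by the receptor they bind. Blue symbols are controls and red symbols ETS1 libraries, with circles for replicate 1 and squares for replicate 2, and the dotted line is the filter of 1 FPKM. MICA and PVR sit lower in red than in blue and NCR3LG1 higher, while ULBP1 and ULBP2 overlap.

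In the controls the ligands spanned a wide range of levels per length. PVR was the highest at a mean of 25.0 FPKM, followed by PVRL2 at 17.7, MICA at 10.3, ULBP2 at 8.80, ULBP1 at 6.41, MICB at 4.08, NCR3LG1 at 3.95, ULBP3 at 2.83 and RAET1G at 0.533 FPKM. The place of MICA depends on its length: its deposited FPKM imply 1385 bases, beside 2386 exon bases in GENCODE 29, while the lengths of the other 8 lie close to their exon bases. At 2386 bases, a setting chosen after seeing the data, the controls stand at 5.83 and 6.18 FPKM for MICA, below ULBP2 and ULBP1. MICB and NCR3LG1 are neighbours in that order whose control values interleave, and the values of the other neighbours do not. The median tested gene stood at 6.13 FPKM in the controls, and PVR and PVRL2 were at percentiles 85.1 and 78.7 of the tested genes and ULBP3 at percentile 27.2.

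MICA (chr6:31399784-31415315, plus strand, GENCODE 29 on GRCh38) is a stress-induced NKG2D ligand. As deposited, with the length given above, it stood at 10.0 and 10.7 FPKM in the controls and at 7.95 and 8.42 FPKM in the ETS1 libraries, from 561 and 651 against 631 and 659 reads. Both ETS1 values lay below both control values. On the log2(FPKM + 1) scale MICA changed by -0.30 (standard error 0.046, limma adjusted p 0.00486), and the size of this change exceeded that of 69.5% of tested genes. It kept its direction and passed under all 14 alternatives, with an adjusted p between 0.0021 and 0.0297. For MICA the authors' deposited table lists -0.33 (adjusted p 0.00447). The 170 tested genes within 5 Mb of MICA had a median change of 0.035. Exons of MICA share 62 bases (2.60%) with the overlapping transcript HCP5, which stood at 1.73 and 1.69 FPKM in the controls and at 2.18 and 2.46 FPKM with ETS1.

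MICB (chr6:31494881-31511124, plus strand) is the close relative of MICA in the MHC region. Its level was 3.96 and 4.21 FPKM in the controls and 4.42 and 4.35 FPKM with ETS1, so the groups did not overlap, but its change of 0.083 (95% interval -0.032 to 0.20) had a limma adjusted p of 0.166. Without control replicate 1 it was 0.047 (adjusted p 0.462). Within a library, which removes any scaling between libraries, MICA stood at 2.54 and 2.53 times MICB in the controls and at 1.80 and 1.94 times in the ETS1 libraries. That ratio was 2.53 ± 0.0062 against 1.87 ± 0.098 (SD, n = 2 each), and the exact two-sided permutation test gave p = 0.333, the smallest that 2 against 2 allows. At GENCODE exon lengths the ratios are 1.44 and 1.44 against 1.02 and 1.10, with the same relative difference between groups. The transcripts are distinct enough for separate counting over most of their length: 1.89% of the MICA 50-base words in GENCODE 29 transcripts also occur in MICB.

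The start regions of both genes are shown because the genes are alike there, while MICA was called and MICB was not. They are the bases before the RefSeq start (GRCh38.p14) that lie before the GENCODE exon at that start, on the plus strand, at chr6:31403345-31403578 for MICA and chr6:31497895-31498085 for MICB. Both windows fall inside the GENCODE gene bodies, which begin further upstream. Capitals mark matches to CCGGAA, a form of ETS family site, read here on the opposite strand, and to GAANNTTC, an arrangement of heat shock elements.
MICA: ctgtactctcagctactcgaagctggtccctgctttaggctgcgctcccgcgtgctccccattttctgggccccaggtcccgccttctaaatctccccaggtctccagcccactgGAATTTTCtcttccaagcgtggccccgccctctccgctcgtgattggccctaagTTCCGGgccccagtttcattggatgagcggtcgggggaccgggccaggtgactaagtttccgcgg
MICB: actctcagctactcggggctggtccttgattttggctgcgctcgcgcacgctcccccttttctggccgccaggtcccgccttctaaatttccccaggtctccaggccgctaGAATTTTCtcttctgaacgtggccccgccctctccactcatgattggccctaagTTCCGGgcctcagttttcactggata
Aligned over the 250 bases before the start, these regions were 85.4% identical. Each held 1 match to CCGGAA, beginning 81 bases before the start in MICA and 85 in MICB, and 1 to GAANNTTC, at 135 and 139 bases. Searched on both strands, CCGGAA occurred in 14.5% of the 35116 RefSeq windows of that length and GAANNTTC in 5.78%, and no match to one motif overlapped the other in these 2 genes. The other 7 ligand genes had no match to either in their windows. ETS sites of other forms were not searched, so these windows may hold some. A match is only a match of letters, and binding was not measured here.

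The ULBP genes lie together on the long arm of chromosome 6. ULBP1 (chr6:149964007-149973710, plus strand) stood at 6.48 and 6.33 FPKM in the controls and at 6.61 and 5.98 FPKM with ETS1, and ULBP2 (chr6:149942000-149949235, plus strand) at 8.69 and 8.91 against 8.36 and 9.21 FPKM. In both genes the ETS1 values enclosed the control values. Their changes were -0.023 (95% interval -0.16 to 0.11) and -0.0034 (95% interval -0.14 to 0.13), with limma adjusted p-values of 0.728 and 0.96. Changes of the size seen for MICA lie outside both intervals.

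ULBP3 (chr6:150063150-150069095, minus strand), a glycolipid-anchored ligand of low level, stood at 2.79 and 2.87 FPKM in the controls and at 3.03 and 3.46 FPKM in the ETS1 libraries. The groups did not overlap, but the ETS1 libraries were far apart, and the change of 0.15 (95% interval -0.021 to 0.31) had a limma adjusted p of 0.108. It was 0.072 without ETS1 replicate 2 and 0.22 without ETS1 replicate 1 (adjusted p 0.445 and 0.0599). It rests on 111 and 125 against 171 and 193 reads. RAET1G (chr6:149916878-149923121, minus strand), a further member of the family, was listed at 0.517 and 0.549 FPKM in the controls and at 0.294 and 0.476 FPKM with ETS1. The smallest whole reads in the ratio of these values are 31 and 36 against 25 and 40, which imply a gene length of 1487 bases beside 1486 exon bases in GENCODE. Being under the filter it was tested only in the fit without one, where limma gave an adjusted p of 0.342.

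The ULBP and RAET1 genes resemble each other, so their reads are less certain. Of the ULBP2 words of 50 bases, 32.2% occur in another gene's transcripts, most of them in RAET1L, which was at most at 0.0526 FPKM in any library. The share was 12.4% for ULBP3, 12.0% for RAET1G and 6.85% for ULBP1, and the gene that shared most was the pseudogene RAET1K for ULBP1 and ULBP3 and ULBP2 for RAET1G.

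Taken as a set, the 6 NKG2D ligand transcripts summed to 32.5 and 33.5 FPKM in the controls and to 30.7 and 31.9 FPKM with ETS1, a mean ratio of 0.948. The groups did not overlap, and the exact two-sided permutation p was 0.333, the smallest possible. MICA made up 30.9% and 31.8% of that sum in the controls and 25.9% and 26.4% with ETS1. ULBP2 was at 26.8% and 26.6% in the controls and at 27.3% and 28.9% with ETS1. These shares rest on the short length behind the MICA values. At GENCODE exon lengths MICA made up 20.5% and 21.2% in the controls and 16.8% and 17.2% with ETS1, and ULBP2 was the largest in every library, at 30.5% to 32.3%. The sums were then 28.4 and 29.2 against 27.4 and 28.5 FPKM, and the groups overlapped.

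**Figure D2:**
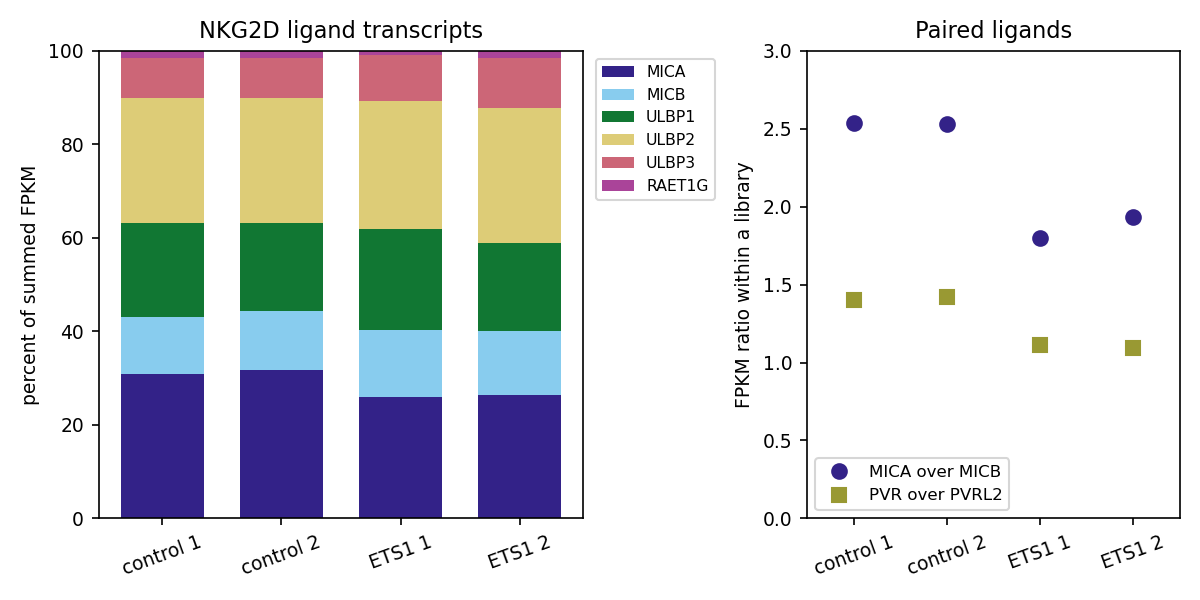
Left, the share of each NKG2D ligand in the summed FPKM of the 6, in percent, as stacked bars for the 4 libraries. Right, the FPKM ratios of MICA over MICB (circles) and PVR over PVRL2 (squares) in each library, with 1 point per library. All values are as deposited, with the length of 1385 bases behind MICA. MICA takes a smaller share in both ETS1 libraries, and both ratios are lower there.

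PVR (chr19:44643798-44663583, plus strand), the poliovirus receptor, is the DNAM-1 ligand that TIGIT also binds most strongly. It stood at 24.5 and 25.5 FPKM in the controls and at 20.4 and 20.1 FPKM in the ETS1 libraries, from 3485 and 3962 against 4125 and 4007 reads. The groups were apart by several times the spread within either. PVR changed by -0.29 (standard error 0.032, limma adjusted p 0.00213). All 14 alternatives kept the direction and the call, the smallest change being -0.22 under quantile normalization. For PVR the authors' deposited table lists -0.32 (adjusted p 2.48e-08). The 186 tested genes within 5 Mb of PVR had a median change of -0.039. Its exons share 121 bases (3.44%) with the neighbouring gene CEACAM19, which stood at 4.53 and 4.06 FPKM in the controls and at 2.82 and 2.76 FPKM with ETS1, and the part of these bases in the PVR value was not tested. The bases before the first GENCODE exon of PVR are given because it was the most abundant ligand and fell. They are from RefSeq at chr19:44643660-44643797 on the plus strand of GRCh38.p14, with no match to CCGGAA or GAANNTTC, the only forms searched.
PVR: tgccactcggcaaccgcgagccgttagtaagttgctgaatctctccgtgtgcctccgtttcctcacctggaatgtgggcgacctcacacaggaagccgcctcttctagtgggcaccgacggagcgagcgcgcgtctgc

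PVRL2 (chr19:44846175-44889228, plus strand), the second DNAM-1 ligand, lies close to PVR on chromosome 19. Its level was 17.5 and 17.9 FPKM in the controls and 18.3 and 18.3 FPKM with ETS1, without overlap. The change of 0.049 (95% interval -0.027 to 0.12) missed the threshold in limma (adjusted p 0.209). Of the alternatives, only removing the median of its chromosomal neighbours, -0.045, brought it past (0.093, adjusted p 0.041). Without control replicate 1 it was 0.032. PVR stood at 1.40 and 1.42 times PVRL2 in the controls and at 1.11 and 1.10 times in the ETS1 libraries, with an exact two-sided permutation p of 0.333, the smallest possible. PVR and PVRL2 together summed to 42.0 and 43.4 FPKM against 38.8 and 38.5 FPKM.

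NCR3LG1 (chr11:17351726-17377341, plus strand), the B7 family ligand of NKp30, was the ligand that rose. Its level was 3.80 and 4.10 FPKM in the controls and 4.72 and 4.63 FPKM with ETS1, from 989 and 1167 against 1747 and 1690 reads. The ETS1 libraries were close together and above both controls. NCR3LG1 changed by 0.20 (standard error 0.047, limma adjusted p 0.0193), and the authors' deposited table lists 0.21 (adjusted p 0.018). The call was not stable: limma gave an adjusted p of 0.0557 without control replicate 1, 0.0936 without ETS1 replicate 1 and 0.074 without ETS1 replicate 2, with changes of 0.16, 0.19 and 0.21, and it was also lost with no filter (0.0666) and under quantile normalization (0.0588). None of its words of 50 bases occurs in another gene's transcripts. The bases before its first GENCODE exon are from RefSeq at chr11:17351550-17351725 on the plus strand of GRCh38.p14. They are shown beside those of the ligands that fell and hold no match to CCGGAA or GAANNTTC, the only forms searched.
NCR3LG1: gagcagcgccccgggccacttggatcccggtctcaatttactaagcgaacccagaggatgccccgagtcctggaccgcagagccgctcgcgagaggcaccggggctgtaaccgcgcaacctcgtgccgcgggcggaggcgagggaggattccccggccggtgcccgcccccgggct

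**Figure D3:**
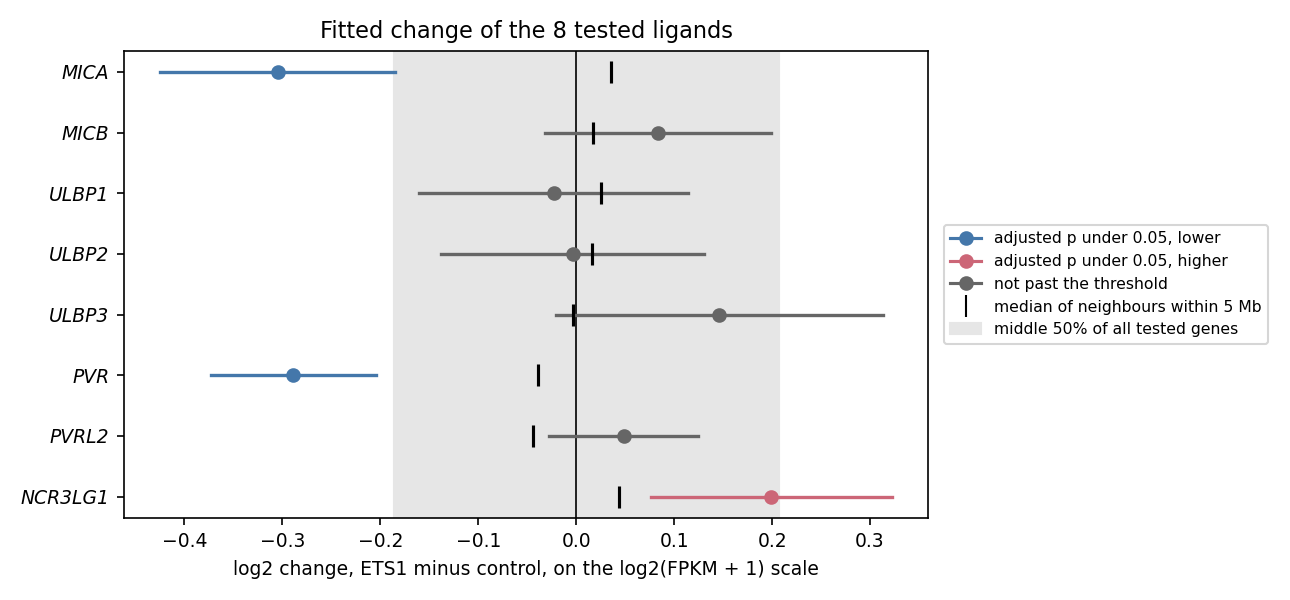
Change of the 8 tested ligands between ETS1 and control libraries on the log2(FPKM + 1) scale, with 95% intervals from limma as lines. Black ticks give the median change of tested genes within 5 Mb and the grey band spans the middle 50% of all tested genes, from -0.19 to 0.21. MICA and PVR lie below the band at -0.30 and -0.29, and NCR3LG1 lies at 0.20 near its upper edge.

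The size of these changes was ordinary for the experiment. The median absolute change over all tested genes was 0.20, and NCR3LG1 stood at percentile 50.3 of absolute changes, PVR at 67.1 and ULBP2 at 1.12. The values of 6 of 8 tested ligands did not overlap between the groups, where 82.0% of all tested genes did not. The tested genes outside the lists whose 4 centred values lay nearest to those of MICA were C16orf45, CORO1A and RPL11, at distances of 0.011, 0.015 and 0.017 on the log2(FPKM + 1) scale. Having been picked by these same values, they had to change much as MICA did, here by -0.31, -0.30 and -0.31.

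Other ligands of activating NK receptors were compared as a list of 10 genes. All 5 that passed the filter were called, 3 higher and 2 lower, beside 59.1% of all tested genes called in either direction, and 5 were under the filter, with CD48 at 0 in every library. BAG6, the other NKp30 ligand, fell from 46.8 and 47.6 to 40.1 and 38.3 FPKM (log2 change -0.26, limma adjusted p 0.00298), the opposite direction from NCR3LG1. The BAG6 change was -0.15 under quantile normalization and still passed. CD70, the ligand of CD27, fell from 15.5 and 16.4 to 12.3 and 12.9 FPKM (-0.32, limma adjusted p 0.00401). The NKp44 ligand NID1 rose by 0.21 and CADM1, which binds CRTAM, by 0.14. For CADM1 the limma adjusted p was 0.0182, but it was lost with the replicate block (0.0525) and without control replicate 2 (0.0505), ETS1 replicate 1 (0.0778) or ETS1 replicate 2 (0.121).

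The nectins are the family of PVR and PVRL2 and take part in the same receptor network. PVRL3 rose from 4.28 and 3.83 to 5.98 and 6.48 FPKM (0.52, limma adjusted p 0.00267). It was counted in the list above, and with the median of its neighbours, 0.19, taken away its change was 0.33. PVRL4, a TIGIT ligand, rose from 1.40 and 1.20 to 3.16 and 3.33 FPKM, a ratio of 2.50 (0.89, limma adjusted p 0.00083). PVRL1, a ligand of CD96, fell from 2.94 and 3.07 to 2.22 and 2.36 FPKM (-0.28, limma adjusted p 0.00796). So PVR and PVRL1 were lower, PVRL3 and PVRL4 higher, and PVRL2 was not called. The ratio of PVR to PVRL3 was 5.73 and 6.65 in the controls and 3.42 and 3.10 with ETS1.

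The list of inhibitory ligands held 15 genes, of which 9 were tested, 6 called higher and 1 (PVRL1) lower, with a median of 0.19. Over all tested genes 30.7% were higher and 28.4% lower, with a median of 0.016. The classical MHC class I chains, which engage inhibitory KIR receptors, were in this list, and HLA-B went from 46.5 and 47.5 to 60.6 and 59.2 FPKM (0.34, limma adjusted p 0.00108). The non-classical HLA-F rose from 3.15 and 3.24 to 4.23 and 4.33 FPKM (0.33, limma adjusted p 0.00282). These genes lie on the arm of chromosome 6 that carries MICA and MICB. Reads of MHC class I genes can be shared among them, so their values are uncertain.

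Of 9 adhesion and co-stimulation ligands, 6 were tested, with 2 called higher and 0 lower, beside 30.7% and 28.4% of all tested genes. TNFSF9 (4-1BB ligand) stood at 5.45 and 5.83 FPKM in the controls and at 7.56 and 6.62 FPKM with ETS1 (0.28, limma adjusted p 0.0209), and the call was lost without control replicate 1 (0.0663) or ETS1 replicate 1 (0.0675), with no filter (0.0917) and under quantile normalization (0.0577). CD47 rose by 0.29 (limma adjusted p 0.00367), which fell to 0.070 with an adjusted p of 0.179 once the local median of 0.22 was removed. ICAM3 (-0.10), CD58 (-0.093), F11R (-0.011) and JAM3 (-0.016) did not pass, with limma adjusted p-values of 0.104, 0.251, 0.828 and 0.763. CD58, the ligand of CD2, passed without control replicate 2 (-0.17, adjusted p 0.0402) and was at -0.015 without control replicate 1 (adjusted p 0.813), and CD58 and JAM3 passed with the local median removed (-0.28 and -0.17, adjusted p 0.0112 and 0.0157). ICAM3 passed under quantile normalization alone (-0.14, adjusted p 0.043).

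**Figure D4:**
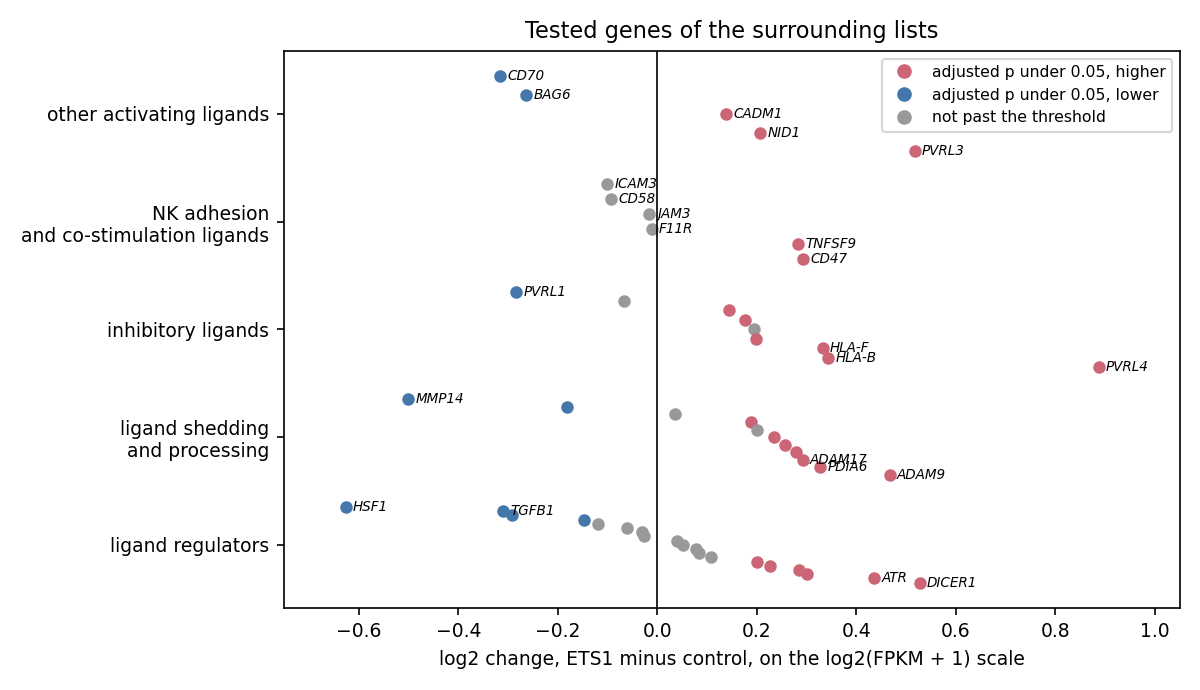
Change on the log2(FPKM + 1) scale of every tested gene in 5 lists around the ligands, 1 point per gene, coloured by the limma call, with the genes described in the text named. The lists hold points on both sides of 0. Of the shedding and processing genes 7 are higher and 2 lower, and PVRL4 is farthest to the right at 0.89.

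A further list of 12 genes held proteases and other proteins of ligand release, inhibitors of these proteases, and proteins that make or attach glycolipid anchors. Of the 11 tested, 7 were called higher and 2 lower, with a median of 0.24, beside 30.7% higher, 28.4% lower and a median of 0.016 over all tested genes. The 7 that rose were ADAM9, ADAM17 and PDIA6 of the releasing proteins, the metalloprotease inhibitors TIMP1 (0.28) and TIMP3 (0.24), and PIGA (0.19) and PIGK (0.26) of the anchor proteins. The anchor gene GPAA1 fell, from 34.2 and 35.1 to 30.8 and 30.1 FPKM (-0.18, limma adjusted p 0.00641). With the median of their neighbours taken away the directions of GPAA1 and PIGK turn: GPAA1 goes to 0.12 (adjusted p 0.0176) and PIGK to -0.089 (adjusted p 0.107), while PIGA goes to 0.12 (adjusted p 0.0322). ADAM10 and MMP2, proteases of the same list, were not called (0.035 and 0.20, limma adjusted p 0.51 and 0.0532). With the median of their neighbours taken away both passed as higher (0.23 and 0.28, limma adjusted p 0.00638 and 0.0119). TIMP1, TIMP3, PIGA, PIGK, GPAA1, ADAM10 and MMP2 are named after their values were seen. ADAM9 and ADAM17, metalloproteases that can cleave NKG2D ligands, rose from 8.82 and 8.42 to 11.7 and 12.9 FPKM and from 3.27 and 3.16 to 4.16 and 4.16 FPKM (0.47 and 0.29, limma adjusted p 0.00258 and 0.0039). The ADAM9 change was 0.73 once the median of its neighbours was taken away. PDIA6, a disulphide isomerase that takes part in MICA shedding, rose from 31.5 and 31.9 to 39.5 and 40.6 FPKM (0.33, limma adjusted p 0.00118). MMP14, a membrane metalloprotease, fell from 1.66 and 1.50 to 0.848 and 0.80 FPKM (-0.50, limma adjusted p 0.00358), and this change was -0.93 in voom, which uses no pseudocount of 1 FPKM. MMP14 passed the filter only through the controls, since its ETS1 mean was 0.824 FPKM, so its p-value and its place among the 2 lower calls are no support for a difference of the list.

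Among 20 genes known to regulate NKG2D ligands, 19 were tested, 6 called higher and 4 lower, with 9 not called and a median of 0.051. The 10 called are near the 59.1% called over all tested genes. HSF1, the heat shock factor, fell from 28.8 and 29.5 to 18.5 and 18.5 FPKM (-0.63, limma adjusted p 0.000476). It lies on chromosome 8, where its neighbours within 5 Mb had a median of -0.30, and removing that median left -0.33 with an adjusted p of 0.000665. ATR, a DNA damage kinase, rose by 0.44 and DICER1, which processes microRNAs, by 0.53, while TGFB1, a cytokine that lowers NKG2D and MICA, fell by 0.31. Their limma adjusted p-values were 0.00134, 0.00145 and 0.00265.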

How the data were processed

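RNA of 2 ETS1 and 2 control libraries of TE5 cells was used. The deposited values are FPKM, computed by the authors, whose processing notes name HISAT2, HTSeq, DESeq2 and hg38/GRCh38, without versions or roles (per the submitters' processing notes). The use of strand is not given in the sources used here. A second table, per the file headers the authors' DESeq2 result, holds the authors' mean normalized count (a signal over the 4 libraries), log2 fold changes with standard errors, and p-values with adjusted p-values. It covers 16652 genes.

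The members and lists were chosen with earlier results of these data known. FPKM was taken as log2(FPKM + 1), genes with a mean of at least 1 FPKM were kept (14306, 25.7%), and limma 3.58.1 in R 4.3.3 was fitted with a group term and an intensity trend, two-sided, with Benjamini-Hochberg adjustment over all tested genes at 0.05. With 2 libraries against 2, exact permutation cannot go below 0.333, so single-gene p-values rest on variance shared across genes. The log2(FPKM + 1) scale understates changes of low genes. Reads were recovered from FPKM, its whole-number steps and the mean normalized counts: 99.3% of values of genes with a mean normalized count under 100, and 99.6% of those of highly counted genes, fell within 0.05 of a whole number. Intervals are at 95% from limma. Positions are from GENCODE 29, matched by name or RefSeq synonym for 87.9% of tested genes. Sequence words of 50 bases were compared among GENCODE 29 transcripts, and start regions were aligned with Biopython 1.88.

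Described by name are every member, ETS1, from each surrounding list up to 4 called genes, taken by size of change (all tested genes of the 2 shortest), and the 3 genes nearest to the called member with the largest change. The settings varied were the pseudocount, the filter (none, or a mean of at least 5 FPKM), trimmed-mean scaling, quantile normalization, the replicate block, no variance trend, voom on recovered reads, removal of the median of neighbours within 5 Mb, the authors' table, and leaving out each library. Levels within a library were also computed at GENCODE exon lengths, a setting chosen after seeing the data. The limma steps were tested on simulated data.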

Additional observations from a re-analysis of the deposited data

How the results depend on the processing

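MICA and PVR kept direction and call under all 14 alternatives, so 2 ligands were lower in each. The number called higher by limma, 1, became 0 with no filter (1 at an unadjusted p under 0.05), 0 at a mean of at least 5 FPKM, where NCR3LG1 is not tested (0 at an unadjusted p), and 0 under quantile normalization (2 at an unadjusted p), and 2 with the local chromosomal median removed. The voom fit and the authors' deposited table each gave 1. Leaving out each library gave 0 to 1, with 1 at an unadjusted p where it gave 0, and the lone sample left in a group is assumed to vary like the other group. Over all genes, 2562 were higher at a mean of at least 5 FPKM, with fewer genes tested, and 2754 to 3989 without each library in turn, against 4394. Without each library in turn, ULBP1 ranged from -0.085 to 0.039 (reversed without ETS1 replicate 2), ULBP2 from -0.066 to 0.059 (reversed there without ETS1 replicate 1, and to 0.013 without control replicate 2), F11R from -0.038 to 0.015 (without control replicate 1, and 0.0032 without ETS1 replicate 1) and JAM3 from -0.052 to 0.020 (without control replicate 1, and 0.013 without ETS1 replicate 2). The cause of these reversals was not tested.

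The replicate block left 1 ligand higher and 2 lower, and 3712 genes higher and 3571 lower over all. Same-numbered libraries did not deviate together (correlation of deviations -0.046). The labels link them only by number, and this correlation cannot show whether they were prepared together. RAET1G rests on 25 to 40 reads per library, and no setting varied the depth. GENCODE exon lengths, added after seeing the data, moved MICA from 31.3% to 20.9% of the NKG2D ligand sum in the controls and its ratio to MICB from 2.53 to 1.44.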

Other observations

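VCAM1 and ICAM1, adhesion ligands of the integrins VLA-4 and LFA-1 on lymphocytes, were under the filter and were chosen after their values were seen. VCAM1 was listed at 0.0327 and 0.0299 FPKM in the controls and at 0.354 and 0.353 FPKM in the ETS1 libraries, a ratio of 11.3. The smallest whole reads in the ratio of these values are 8 and 8 against 123 and 121. ICAM1 was listed at 0.0467 and 0.0794 FPKM against 0.282 and 0.219 FPKM, or 7 and 13 against 60 and 46 reads. In the limma fit with no filter, their changes on the log2(FPKM + 1) scale were 0.39 and 0.23 with adjusted p-values of 0.00868 and 0.0366. Even with ETS1, both stayed below every tested ligand described above.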
